A study of Mus musculus with 6 samples.

Results

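Small leucine-rich proteoglycans (SLRPs) are described here in the stromal vascular cells of mouse inguinal white adipose tissue (iWAT). The 9 genes, Dcn, Bgn, Aspn, Lum, Fmod, Prelp, Omd, Ogn and Podn, were chosen by symbol from the 31053 genes in the count tables, and all 9 had counts. The study asked how aging alters the progenitor cells of beige fat, and profiled single cells from C57BL/6 males supplied by the National Institute on Aging (C57BL/6JN) or Jackson Laboratories (C57BL/6J). Young mice were 9 weeks and aged mice 57 weeks old, and the inguinal lymph node was removed from the tissue. Groups were held at thermoneutrality (TN, 30 °C), or moved to 6 °C for the last 3 days (3D) or 14 days (14D) of the experiment. Stromal vascular cells were sorted to remove CD45+ immune cells and sequenced as 6 libraries with a 10x Genomics 3' kit, 1 library for each age and temperature. The study's methods say that stromal cells of different mice were kept apart unless stated, and give no number of mice for the single-cell libraries. The p-values reach no further than these 6 libraries. Each test of age or temperature left 2 residual degrees of freedom, so edgeR's variance for a gene also draws on all other genes. No test is possible within a single temperature, and the interaction of age with temperature leaves no residual degrees of freedom.

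SLRPs are secreted proteins with a core of leucine-rich repeats that bind collagen fibrils and control their thickness and spacing. Decorin (Dcn), biglycan (Bgn) and asporin (Aspn) form class I; decorin and biglycan carry chondroitin or dermatan sulfate chains, and asporin has a run of aspartate residues in place of a chain. Lumican (Lum), fibromodulin (Fmod), osteomodulin (Omd) and PRELP (Prelp) form class II, whose members bind collagen and in several cases carry keratan sulfate. Osteoglycin (Ogn) belongs to class III, and podocan (Podn) to a later branch of the family. Several members also bind TGF-beta, and in adipose tissue fibroblasts are known as their main source.

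The genes lie on 5 chromosomes, in part side by side (GENCODE annotation, GRCm38). Aspn (chr13:49544443-49567565), Omd (chr13:49582462-49592822) and Ogn (chr13:49608046-49624501) follow each other on the plus strand with 14896 and 15223 bases between them, and Ecm2, a related gene, ends 11653 bases before Aspn. All 4 lie within Cenpp, which is on the opposite strand. Dcn (chr10:97479609-97518143) and Lum (chr10:97565128-97572703) are 46984 bases apart on the plus strand. Prelp (chr1:133910304-133921414, minus strand) and Fmod (chr1:134037254-134048277, plus strand) are 115839 bases apart. Bgn (chrX:73483602-73495933, plus strand) has no annotated overlap. Podn (chr4:108014791-108096445, minus strand) overlaps Scp2 on the same strand, and how reads in the shared stretch were counted was not tested.

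Promoter sequences of RefSeq (GRCm38.p6) were matched for 7 of the 9 genes, with 8 start sites; Dcn and Lum had no entry. The 4 printed here belong to the gene with the largest fall with age, Aspn, and to 3 genes that were lower in the cold in Icam1+ preadipocytes, Bgn, Podn and Fmod. Each holds the 250 bases before the start site, 5' to 3' on the gene's strand, with capitals marking every TATAAA or GGGCGG on either strand.
Aspn (chr13:49544193-49544442, plus strand): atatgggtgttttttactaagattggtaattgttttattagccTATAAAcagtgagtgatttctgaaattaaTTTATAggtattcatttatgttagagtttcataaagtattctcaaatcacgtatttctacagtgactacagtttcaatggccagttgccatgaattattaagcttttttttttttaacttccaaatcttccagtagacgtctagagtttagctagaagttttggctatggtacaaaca
Bgn (chrX:73483351-73483600, plus strand): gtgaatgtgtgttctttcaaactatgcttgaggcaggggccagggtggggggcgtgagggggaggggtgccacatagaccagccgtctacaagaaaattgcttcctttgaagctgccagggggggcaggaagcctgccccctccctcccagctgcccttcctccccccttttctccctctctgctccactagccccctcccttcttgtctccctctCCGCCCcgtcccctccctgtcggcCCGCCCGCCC
Podn (chr4:108031955-108032204, minus strand): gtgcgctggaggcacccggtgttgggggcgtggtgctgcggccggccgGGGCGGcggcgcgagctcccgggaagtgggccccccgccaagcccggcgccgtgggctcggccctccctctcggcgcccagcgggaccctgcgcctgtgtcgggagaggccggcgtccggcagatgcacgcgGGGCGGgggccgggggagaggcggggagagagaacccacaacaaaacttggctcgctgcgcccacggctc
Fmod (chr1:134037004-134037253, plus strand): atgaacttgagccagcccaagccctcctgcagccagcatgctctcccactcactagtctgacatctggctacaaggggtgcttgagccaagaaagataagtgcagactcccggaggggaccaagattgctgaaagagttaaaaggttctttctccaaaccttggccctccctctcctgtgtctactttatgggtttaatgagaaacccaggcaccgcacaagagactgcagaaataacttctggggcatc
The promoters differed in base composition. GC content was 30.0% for Aspn, 51.2% for Fmod, 64.4% for Bgn and 78.0% for Podn, against a median of 52.4% over 32851 start sites. Aspn held TATAAA 207 and 178 bases before the start, and 12.4% of all promoters of this length held that motif. Bgn held GGGCGG at 34, 10 and 6 bases, and the Podn start shown held it at 202 and 70 bases; 32.7% of all promoters did. Neither motif was present in the Fmod window. These matches describe the letters only.

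Of 68103 barcodes, 57326 were kept, and 49318 of these (the adipose stem and progenitor cells, ASPCs) had the fibroblast markers Pdgfra, Col1a1 and Dpt among others. By marker scores there were 22424 Dpp4+ fibroblasts, 18789 Icam1+ preadipocytes and 3419 Cd142+ fibroblasts, while 4686 ASPCs had no class. Smooth muscle cells and pericytes (SMC/pericytes) numbered 921 and endothelial cells 3862. No SLRP gene was used to class the cells. All 10 markers of the own list were found in at least 10% of the cells in each of these classes except Cd142+ fibroblasts, where 9 of 10 were and Abcg1 was found in 4.91%; Lpl, a preadipocyte marker, was present in 75.0% of Dpp4+ fibroblasts. Libraries held 52068837 to 88508349 unique molecular identifiers (UMIs, 1 per captured transcript), with medians of 2588 per barcode in the aged 14D cold library and 6232 to 8954 in the others. Any pair of libraries shared 30 to 44 cell barcodes. Levels are UMIs summed over the cells of a class in a library, as CPM (counts brought to a common library total), scaled with edgeR's TMM factors. In such sums, fewer cells with a transcript and fewer transcripts per cell cannot be told apart.

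Each fibroblast class had its own profile of SLRPs. Together the 9 genes took 1.45% ± 0.0976 of the UMIs of Dpp4+ fibroblasts, 1.95% ± 0.217 of those of Icam1+ preadipocytes and 2.48% ± 0.253 of those of Cd142+ fibroblasts (SD, n = 6 libraries). They took 0.271% ± 0.0760 in SMC/pericytes and 0.0469% ± 0.0259 in endothelial cells. UMIs mark the 3' end of a transcript and do not scale with its length, and on that scale Dcn alone held 83.7% ± 3.42 of the SLRP UMIs of Dpp4+ fibroblasts, 75.3% ± 4.54 of those of Icam1+ preadipocytes and 84.4% ± 3.91 for Cd142+ fibroblasts.

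**Figure D1:**
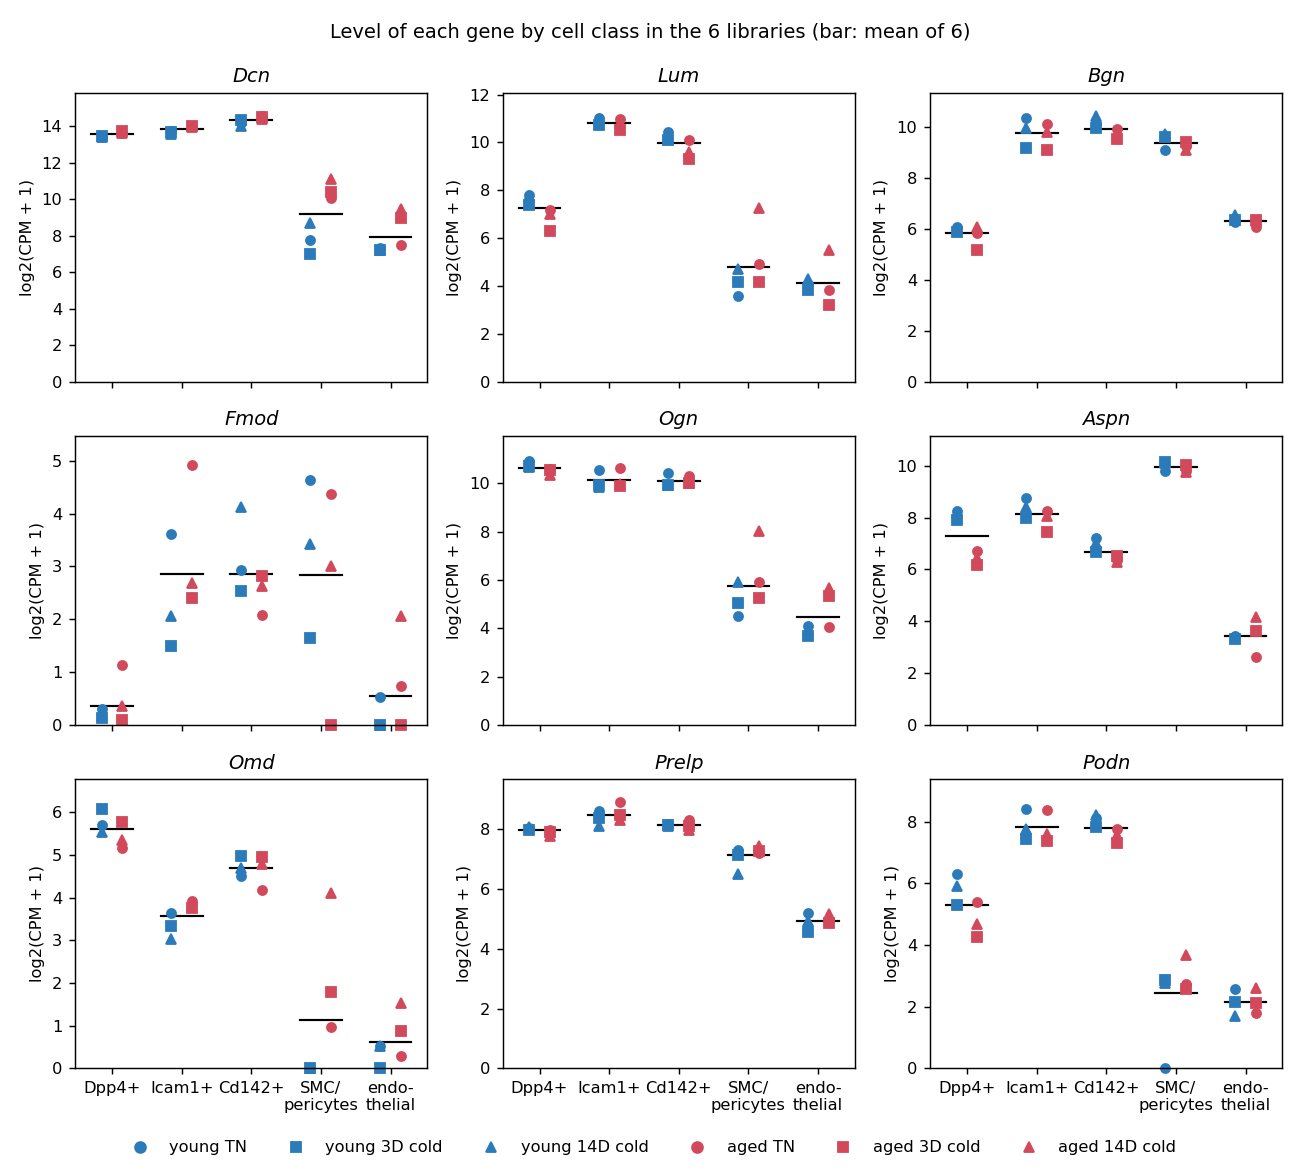
Level of each of the 9 genes as log2(CPM + 1), on the y axis, in 5 cell classes, on the x axis; each point is 1 library, colors show age, symbols show temperature and the bar is the mean of the 6 log2 values. Lum, Bgn, Fmod and Podn sit far lower in Dpp4+ fibroblasts than in the other fibroblast classes, Omd and Ogn are highest there, and Aspn is highest in SMC/pericytes.

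Relative to Dpp4+ fibroblasts, Icam1+ preadipocytes were high in biglycan, lumican, fibromodulin and podocan. In Dpp4+ fibroblasts Bgn was at 57.4 ± 11.8 CPM, against 913 ± 307 CPM in Icam1+ preadipocytes and 1011 ± 239 CPM among Cd142+ fibroblasts (SD, n = 6). Lum was at 159 ± 54.4, 1831 ± 225 and 1053 ± 291 CPM in the same order. Podn was at 43.5 ± 22.5, 237 ± 78.7 and 228 ± 52.4 CPM. For these 3 genes no library of Icam1+ preadipocytes or Cd142+ fibroblasts overlapped the libraries of Dpp4+ fibroblasts. Fmod, scarce in every class, was at 0.332 ± 0.424, 9.18 ± 10.3 and 7.07 ± 4.77 CPM. Osteomodulin and osteoglycin had the opposite order. Omd was at 48.5 ± 11.4, 11.2 ± 2.58 and 25.2 ± 5.08 CPM in the same order of classes, and Ogn at 1596 ± 203, 1154 ± 300.5 and 1108 ± 168 CPM. Aspn was at 184 ± 109.8, 294 ± 87.2 and 104 ± 28.0 CPM, Prelp at 249 ± 18.2, 359 ± 71.4 and 282 ± 22.4 CPM, and Dcn at 12124 ± 1109, 14734 ± 1920 and 21023 ± 2895 CPM.

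All 9 genes passed the test between Icam1+ preadipocytes and Dpp4+ fibroblasts (edgeR's quasi-likelihood test on 12 sums with library as a block, Benjamini-Hochberg adjustment over all genes, threshold 0.05). The 7 that were higher had log2 differences of 4.91 (Fmod), 4.00 (Bgn), 3.64 (Lum), 2.58 (Podn), 0.91 (Aspn), 0.56 (Prelp) and 0.32 (Dcn), and the 2 that were lower -2.08 (Omd) and -0.45 (Ogn). Such differences were common, since 33.5% of all genes tested were higher and 34.8% lower. All 9 also passed between Cd142+ and Dpp4+ fibroblasts, 6 higher and 3 lower, where 26.1% of all genes were higher and 25.4% lower. The higher ones were Fmod (4.77), Bgn (4.20), Lum (2.81), Podn (2.56), Dcn (0.84) and Prelp (0.23), and the lower ones Omd (-0.89), Aspn (-0.60) and Ogn (-0.47). The Aspn difference was -0.47 without the young 14D cold library, past the threshold no longer. It was 0.21 with only the markers after the first 5 of each list (adjusted p = 0.2173 by edgeR). Between Cd142+ fibroblasts and Icam1+ preadipocytes 5 genes passed, against 20.9% of all genes higher and 20.7% lower. Omd (1.21) and Dcn (0.51) were higher in Cd142+ fibroblasts, and Aspn (-1.49), Lum (-0.84) and Prelp (-0.33) lower. For the other 4, the 95% interval of the difference ran from -0.08 to 0.45 for Bgn, -1.04 to 1.17 for Fmod, -0.16 to 0.09 for Ogn and -0.28 to 0.22 for Podn.

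The share of cells with a transcript showed the same contrasts at equal depth. Cells were thinned to 2000 UMIs, and 837 Dpp4+, 760 Icam1+ and 260 Cd142+ cells below that depth were left out, most of them from the aged 14D cold library. Lum was found in 22.1% ± 7.22 of Dpp4+ fibroblasts and 91.5% ± 3.46 of Icam1+ preadipocytes (SD, n = 6), against 3.33% ± 1.44 of endothelial cells, which should lack it; unthinned, the shares were 50.1%, 97.0% and 6.61% at median depths of 7578, 8100 and 3320 UMIs. Bgn was found in 7.12% ± 2.30 of Dpp4+ fibroblasts, no more than in endothelial cells (9.43% ± 0.744), and in 70.3% ± 11.96 of Icam1+ preadipocytes. The 1% of Dpp4+ fibroblasts with most held 31.2% of its UMIs, and the part of free RNA in the Bgn share was not tested. Omd reached 8.93% ± 2.20 of Dpp4+ fibroblasts, 2.22% ± 0.657 of Icam1+ preadipocytes and 4.97% ± 1.15 of Cd142+ fibroblasts, above the 0.118% ± 0.108 of endothelial cells. Dcn was found in every thinned fibroblast but also in 30.6% ± 10.5 of endothelial cells. A thinned cell held transcripts of 3.01 ± 0.275 of the 9 genes in Dpp4+ fibroblasts, 4.71 ± 0.421 in Icam1+ preadipocytes, 4.11 ± 0.316 in Cd142+ fibroblasts and 0.535 ± 0.125 in endothelial cells.

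Asporin was more abundant in SMC/pericytes than in ASPCs, and 6 other members were less abundant. Aspn stood at 889, 1126 and 1088 CPM in the young TN, 3D and 14D libraries and at 886, 1057 and 856 CPM in the aged ones. It was found in 78.5% ± 3.97 of thinned SMC/pericytes and in 1.43% ± 0.674 of endothelial cells. Against all ASPCs, Aspn was higher by 1.69 on the log2 scale, the only member of 9 to be higher, where 22.1% of all genes were higher and 30.0% lower. Bgn (log2 difference -0.03, 95% interval -0.39 to 0.33) and Fmod (0.63, -0.21 to 1.476) did not pass the threshold. Dcn (-5.00), Lum (-5.34), Ogn (-4.98), Omd (-3.88), Prelp (-1.58) and Podn (-5.26) were lower. In endothelial cells all 9 were lower than in ASPCs, from -2.94 for Bgn to -6.28 for Ogn, where 38.3% of all genes were lower and 32.3% higher. Schwann cells (124 cells) had no Aspn UMI in any library.

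In Dpp4+ fibroblasts, aged cells had less asporin, podocan and lumican, and to a lesser extent less osteomodulin and osteoglycin. Aspn stood at 307, 238 and 299 CPM in young TN, 3D and 14D libraries and at 103, 70.6 and 87.0 CPM in the aged ones. The highest aged library was below the lowest young library. Podn stood at 78.7, 38.6 and 59.4 CPM in young and 41.4, 18.2 and 24.4 CPM in aged libraries. Here the aged TN library was above the young 3D library, and at each temperature the aged library was lower. Lum stood at 221, 165 and 216 CPM in young and 144, 78.1 and 129 CPM in aged libraries, which did not overlap. Ogn stood at 1928, 1655 and 1627 CPM in young and 1554, 1496 and 1314 CPM in aged libraries, again without overlap. Omd stood at 51.0, 66.8 and 45.4 CPM in young and 34.5, 53.4 and 39.7 CPM in aged libraries, lower in the aged library at each temperature.

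Of the 8 SLRPs tested in Dpp4+ fibroblasts, 5 fell with age and none rose by edgeR's test, where 8.75% of all genes fell and 8.61% rose (quasi-likelihood test of edgeR, adjusted for temperature, Benjamini-Hochberg adjustment). Fmod had too few counts to be tested. The log2 change was -1.71 ± 0.06 (SE) for Aspn (adjusted p = 2.585e-07 by edgeR), -1.10 ± 0.07 for Podn (7.707e-06) and -0.81 ± 0.08 for Lum (0.0001318). Omd (-0.36 ± 0.07, adjusted p = 0.008832 by edgeR) and Ogn (-0.26 ± 0.07, 0.03174) moved less. The median over the 8 was -0.32, and 0.00 over all genes. Bgn (-0.28, adjusted p = 0.131 by edgeR), Prelp (-0.14, 0.1841) and Dcn (0.23, 0.08714) did not pass, although Prelp was lower in every aged library (218 to 250.3 CPM) than in every young one (251 to 271 CPM). The Ogn call was lost without the aged 3D (-0.31), aged TN (-0.23), young 3D (-0.31) or young TN (-0.23) library, and the Omd call without the aged TN library (-0.26). With temperature left out of the model the calls of Podn (-1.09), Lum (-0.78), Omd (-0.34) and Ogn (-0.25) were all lost, and that of Aspn was kept. At 2000 UMIs a cell, Aspn was found in 37.4% ± 3.40 of young and 13.7% ± 1.98 of aged Dpp4+ fibroblasts (SD, n = 3), and Podn in 9.52% ± 2.71 and 5.20% ± 2.16.

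RNA of other cells moved with age in the same class. Of the adipocyte list, 6 of 7 genes tested were higher in aged Dpp4+ fibroblasts, where 8.61% of all genes rose. The summed level of the 8 adipocyte genes was 9.76 to 12.5 CPM in young and 19.7 to 37.4 CPM in aged libraries. Of the red blood cell list, 4 of 5 were higher, with sums of 3.59 to 150.5 and 126 to 304 CPM. In Icam1+ preadipocytes, where 7.44% of all genes rose, 4 of 7 adipocyte genes were higher. The adipocyte sums there were 68.4 to 102 CPM in young and 66.6 to 139.9 CPM in aged libraries. For Cd142+ fibroblasts the count was 1 of 3, against 5.29% of all genes higher. Adipocyte sums in that class were 5.30 to 24.3 CPM in young and 9.76 to 72.5 CPM in aged libraries. No red blood cell gene passed in either class, and the sums ran from 1.72 to 419 CPM in young and 10.4 to 311 CPM in aged Icam1+ preadipocytes and from 2.55 to 1050.3 and 8.38 to 450.5 CPM in Cd142+ fibroblasts. The epithelial and skeletal muscle lists summed to at most 1.25 and 10.9 CPM in these classes, with Myh4 at 0. The part of such RNA in the SLRP values was not tested.

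In Icam1+ preadipocytes, asporin fell with age, while fibromodulin and osteomodulin rose. Aspn stood at 431, 254 and 340 CPM in young TN, 3D and 14D libraries and at 304, 174 and 263 CPM in aged ones, lower in the aged library at each temperature although the groups overlapped. Fmod stood at 11.3, 1.83 and 3.17 CPM in young and 29.1, 4.32 and 5.41 CPM in aged libraries. Omd stood at 11.4, 9.16 and 7.16 CPM in young and 14.2, 12.5 and 12.8 CPM in aged libraries, which did not overlap. The log2 change was 1.18 ± 0.13 for Fmod (adjusted p = 0.001222 by edgeR), 0.51 ± 0.11 for Omd (0.02252) and -0.47 ± 0.07 for Aspn (0.003144). Of all genes tested, 7.44% rose and 5.99% fell. The Omd call was lost without the aged 14D (0.37), aged 3D (0.55), young 14D (0.37) or young 3D (0.55) library. It was also lost with DESeq2 (0.52) and with only the markers after the first 5 of each list (0.42). With temperature left out of the model the calls of Fmod (1.30), Omd (0.51) and Aspn (-0.47) were all lost. Lum, at 2054, 1684 and 2001 CPM in young and 1994, 1480 and 1774 CPM in aged libraries, overlapped between the ages, as did Bgn and Podn. At each temperature all 3 were lower in the aged library, and none passed the test by edgeR.

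In Cd142+ fibroblasts, 4 SLRPs fell with age and none rose by edgeR's test, where 4.73% of all genes fell and 5.29% rose. Lum stood at 1385, 1110 and 1308 CPM in young TN, 3D and 14D libraries and at 1089, 640.5 and 784 CPM in aged ones. Every aged library was below every young library. Bgn stood at 1140, 1004 and 1399 CPM in young and 981, 736 and 808 CPM in aged libraries, and Podn at 275, 229 and 298 CPM in young and 219, 157 and 189 CPM in aged libraries, both without overlap. Aspn stood at 147, 102 and 128 CPM in young and 80.6, 89.5 and 76.5 CPM in aged libraries, also without overlap. The log2 change was -0.63 ± 0.10 for Lum (adjusted p = 0.00138 by edgeR), -0.59 ± 0.12 for Aspn (0.007696), -0.51 ± 0.09 for Podn (0.002593) and -0.49 ± 0.10 for Bgn (0.0102). Fmod overlapped between the ages, at 6.60, 4.796 and 16.5 CPM in young and 3.25, 6.09 and 5.17 CPM in aged libraries. The calls of Lum and Bgn were lost with only the markers after the first 5 of each list (-0.43 for each). With temperature left out of the model the calls of Lum (-0.60), Bgn (-0.49) and Podn (-0.51) were lost.

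Decorin alone was higher in every aged than in every young library in all 3 fibroblast classes, and whether it was called depended on the method. It stood at 11091, 11290 and 11051 CPM in young and 12809, 13584 and 12920 CPM in aged Dpp4+ fibroblasts at TN, 3D and 14D. In Icam1+ preadipocytes it stood at 13543, 13430 and 12206 CPM in young and 16793, 16597 and 15835 CPM in aged libraries. In Cd142+ fibroblasts it stood at 18635, 21000 and 16781 CPM in young and 24229, 23743 and 21749 CPM in aged libraries. By edgeR's quasi-likelihood test, which called it in none of the 3, the log2 differences were 0.23 (adjusted p = 0.08714 by edgeR), 0.33 (0.1547) and 0.31 (0.07976). DESeq2 called Dcn higher in all 3, with adjusted p values of 0.003558, 0.001281 and 0.02886 and log2 differences of 0.23, 0.33 and 0.31. With no filter on low counts edgeR also called it in all 3 (adjusted p = 0.02986, 0.03513 and 0.0009149). The shares of all genes called by DESeq2 and with no filter are not given. The 3 classes come from the same libraries, and the share of all genes without overlap between the ages was not counted. Over all ASPCs, Aspn (-0.88 ± 0.09, adjusted p = 0.003105 by edgeR) was the only SLRP of 9 to pass, where 4.97% of all genes fell and 5.48% rose. ASPC sums mix the classes, whose shares differed between libraries. Dpp4+ fibroblasts made up 47.9%, 42.2% and 50.2% of kept cells in young TN, 3D and 14D libraries. In aged ones they made up 23.8%, 37.9% and 33.5%. The part of this mix in the ASPC changes was not tested.

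**Figure D2:**
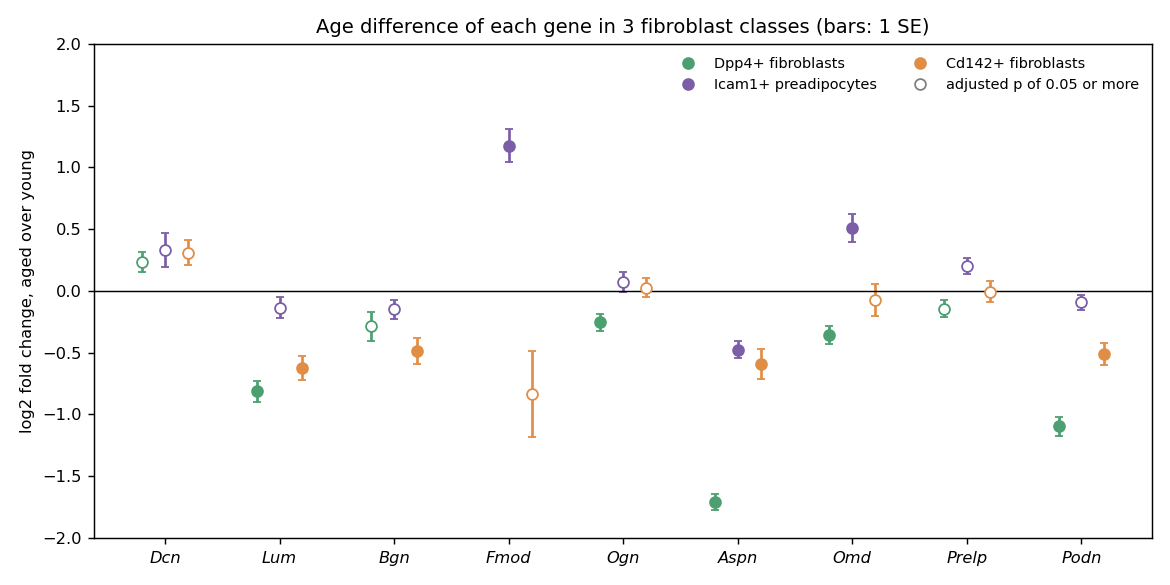
Age difference of each gene in the 3 fibroblast classes; the y axis is the log2 fold change of aged over young, the bar is 1 SE and open points did not pass an adjusted p of 0.05. Aspn lies below 0 in all 3 classes and lowest in Dpp4+ fibroblasts (-1.71), Fmod lies above 0 in Icam1+ preadipocytes (1.18), and Dcn lies above 0 throughout with open points.

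The age effects of asporin, podocan and lumican differed between the classes when the difference itself was tested. Against Dpp4+ fibroblasts, the log2 change in Icam1+ preadipocytes was higher by 1.24 for Aspn (adjusted p = 0.001435 by edgeR), 1.02 for Podn (0.001435) and 0.69 for Lum (0.03525), where 1.25% of all genes had a higher and 0.544% a lower change. The Lum difference did not pass without the aged 3D (0.53), young 14D (0.65), young 3D (0.73) or young TN (0.67) library. It also did not pass with cells thinned to 2000 UMIs (0.64) or with only the markers after the first 5 of each list (0.75). Against Dpp4+ fibroblasts, the change in Cd142+ fibroblasts was higher by 1.12 for Aspn (adjusted p = 0.0001706 by edgeR), the only SLRP of 9 to pass, with 1.13% of all genes higher and 0.779% lower. Against Icam1+ preadipocytes, the change in Cd142+ fibroblasts was lower by a log2 difference of -0.50 for Lum (adjusted p = 0.01068 by edgeR), with 0.727% of all genes lower and 0.407% higher. That difference did not pass without the aged 14D (-0.45) or aged 3D (-0.44) library, nor with only the markers after the first 5 of each list (-0.29).

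The collagens to which SLRPs bind fell with age in the same classes. Of 12 listed collagen genes 11 were tested, and all 11 fell in Dpp4+ fibroblasts. Among Icam1+ preadipocytes 7 fell, and among Cd142+ fibroblasts 9. Col1a1, Col1a2 and Col3a1, which also helped to define ASPCs, are among them, and without these 3 the counts were 8, 4 and 6 of 8. Of all genes tested, 8.75%, 5.99% and 4.73% fell in the same order of classes. In Dpp4+ fibroblasts the largest changes were those of Col3a1 (-1.93), Col1a1 (-1.89), Col1a2 (-1.32) and Col5a2 (-1.21), with a median of -1.06 over the 11. In Icam1+ preadipocytes they were those of Col14a1 (-0.98), Col1a1 (-0.70), Col3a1 (-0.61) and Col1a2 (-0.57), with a median of -0.35. In Cd142+ fibroblasts they were those of Col1a1 (-1.85), Col3a1 (-1.67), Col1a2 (-1.36) and Col5a1 (-1.03), with a median of -0.83. The SLRPs had medians of -0.32, 0.07 and -0.49 in the same order, and the median over all genes was 0.00 in each class.

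**Figure D3:**
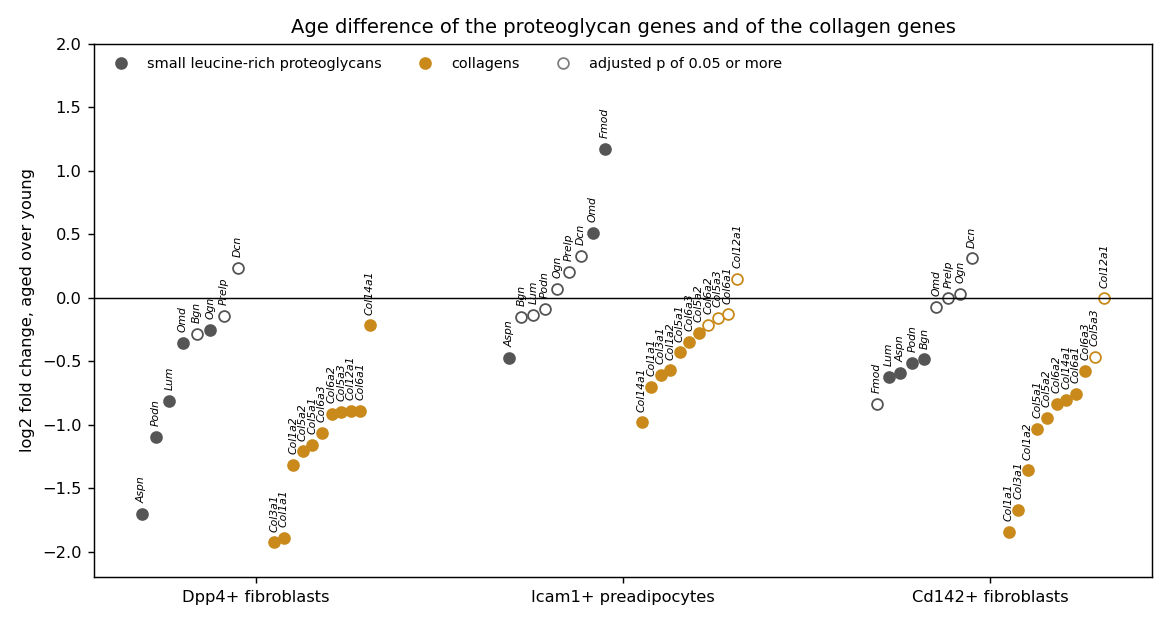
Log2 fold change of aged over young, on the y axis, for each tested SLRP (grey) and each of 11 collagens (ochre) in the 3 fibroblast classes; open points did not pass an adjusted p of 0.05. All 11 collagens are filled and below 0 in Dpp4+ fibroblasts, where the SLRPs spread from -1.71 for Aspn to 0.23 for Dcn.

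Counts of the genes that build the chains of SLRPs are read against the shares of all genes that rose and fell with age, 8.61% and 8.75% for Dpp4+ fibroblasts, 7.44% and 5.99% for Icam1+ preadipocytes and 5.29% and 4.73% for Cd142+ fibroblasts. Of 25 genes for chondroitin and dermatan sulfate chains, 2 of 22 tested rose and 5 fell in Dpp4+ fibroblasts, among them the sulfotransferase Chst15 (0.93), the galactosyltransferase B4galt7 (-0.56), the xylosyltransferase Xylt1 (-0.40) and Csgalnact1 (0.37), which starts chondroitin chains. In Icam1+ preadipocytes 1 of 24 rose and 2 fell: Papss2 (0.55), which makes the sulfate donor, and the chain polymerizing factors Chpf (-0.55) and Chpf2 (-0.30). In Cd142+ fibroblasts 1 of 22 rose and 4 fell, among them B3galt6 (-1.06), Papss2 (0.56), Chpf2 (-0.52) and Chpf (-0.42). Of 11 keratan sulfate genes, 1 of 9 tested rose and 3 fell in Dpp4+ fibroblasts (B4galt4 -0.39, Chst1 0.29, Fut8 -0.25, St3gal1 -0.24), and 1 of 9 fell in Icam1+ preadipocytes (B4galt1 -0.34). None of 8 passed edgeR's test in Cd142+ fibroblasts, with 4 at an unadjusted p under 0.05 and 0 called by DESeq2.

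Of 17 ligands and receptors that SLRPs bind, 16 were tested, and the shares of all genes given for the chain genes (8.61% and 8.75%, 7.44% and 5.99%, 5.29% and 4.73%) apply to them and to the proteases. In Dpp4+ fibroblasts 6 rose and 2 fell, led by Tgfb2 (0.54), the Toll-like receptor Tlr2 (-0.45), Bmp4 (0.38) and Tgfbr1 (0.30). In Icam1+ preadipocytes 5 rose and 1 fell, led by the ATP receptor P2rx7 (1.46), Tgfb1 (0.53), Igf1r (0.45) and Tgfbr1 (0.41). In Cd142+ fibroblasts 4 rose, namely Tgfb2 (0.81), Bmp2 (0.53), Tgfbr1 (0.50) and Igf1r (0.35). The receptor gene Tgfbr1 was thus called higher in all 3 classes. Of 9 proteases that cut SLRPs or their partners, 8 were tested. In Dpp4+ fibroblasts 2 rose and 3 fell, among them Mmp3 (0.53), Mmp2 (-0.49), Bmp1 (-0.36) and Htra1 (-0.32). In Icam1+ preadipocytes 3 fell: Tll1 (-0.89), Htra1 (-0.55) and Bmp1 (-0.51). In Cd142+ fibroblasts 2 rose and 3 fell, among them Tll1 (-1.89), Bmp1 (-0.49), Adamts5 (0.39) and Mmp14 (0.39). Bmp1, which trims the propeptides of procollagen and of biglycan, was called lower in all 3.

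In the cold, 6 of the 9 SLRPs were lower in Icam1+ preadipocytes. Bgn stood at 1335 CPM at TN, 577 at 3D and 991 at 14D in young libraries, and at 1125, 553 and 901 CPM in aged ones. Podn stood at 342, 173 and 217 CPM in young and 329.8, 165 and 195 CPM in aged libraries. For both genes every 3D library was below every 14D library, and every 14D library below every TN library. Fmod stood at 11.3, 1.83 and 3.17 CPM in young and 29.1, 4.32 and 5.41 CPM in aged libraries, with every cold library below every TN library. Ogn stood at 1480, 979 and 911 CPM in young and 1594, 949.6 and 1010 CPM in aged libraries. Prelp stood at 394, 331 and 273 CPM in young and 479, 357 and 318 CPM in aged libraries. Both were lower in each cold library than in either TN library. Aspn, given above, was lowest at 3D at both ages.

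Tested over both cold groups together, these 6 passed, against 5.09% of all genes tested in either direction (edgeR's quasi-likelihood test with age as a term, Benjamini-Hochberg adjustment). The log2 changes at 3D and 14D over TN were -2.69 and -2.13 for Fmod (adjusted p = 0.0003368 by edgeR), -0.99 and -0.71 for Podn (0.001739) and -1.12 and -0.38 for Bgn (0.002971). They were -0.78 and -0.27 for Aspn (adjusted p = 0.00563 by edgeR), -0.67 and -0.68 for Ogn (0.009444) and -0.34 and -0.56 for Prelp (0.01792). The Prelp call was lost without the aged TN library (-0.50 at 14D). All 6 calls were lost when age was left out of the model, with the log2 changes close to those given.

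**Figure D4:**
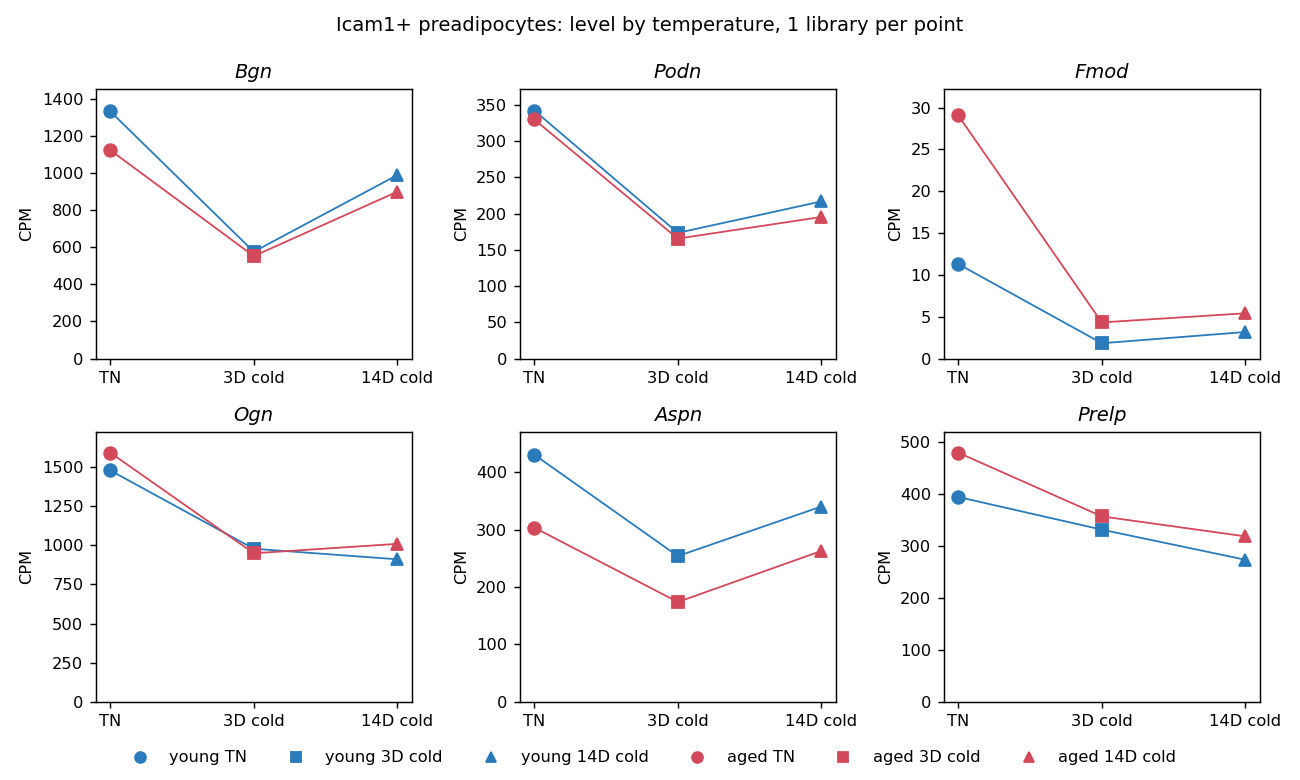
CPM of the 6 genes called for temperature in Icam1+ preadipocytes, on a y axis that starts at 0, at TN, 3D and 14D on the x axis; each point is 1 library and lines join libraries of the same age. Bgn, Podn, Aspn and Fmod are lowest at 3D and higher at 14D at both ages, with Fmod still far below TN. Ogn and Prelp remain low at 14D.

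Fibromodulin in Icam1+ preadipocytes came from few cells. Only 749 of 18789 cells held a UMI of Fmod, and the 1% of cells with most held 56.0% of its UMIs. At 2000 UMIs a cell the share was 1.62% (exact binomial 95% interval 1.16 to 2.20, which covers counting error only) in young TN, 0.239% (0.103 to 0.470) in young 3D and 0.601% (0.356 to 0.948) in young 14D cells. It was 4.43% (3.80 to 5.14) in aged TN, 0.946% (0.656 to 1.32) in aged 3D and 0.916% (0.534 to 1.46) in aged 14D cells. Endothelial cells held it in 0.125% ± 0.139 (SD, n = 6). Without thinning the shares were 6.62%, 1.43% and 2.14% in young and 9.27%, 2.00% and 1.96% in aged libraries. Cells with at least 4 UMIs of Fmod numbered 72 in the aged TN library, 16 in the young TN library and 2 to 4 in the others.

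In Dpp4+ fibroblasts 4 of 8 SLRPs passed the test of temperature, where 6.50% of all genes did. Podn (-1.10 at 3D and -0.56 at 14D, adjusted p = 0.0007585 by edgeR), Lum (-0.64 and -0.09, 0.01205) and Aspn (-0.45 and -0.13, 0.01899) were lower at 3D, and Omd was higher at 3D (0.49, 0.01277). Omd was at 66.8 CPM in the young and 53.4 CPM in the aged 3D library, in each case above the TN and 14D libraries of that age. The Omd call was lost without the aged 3D (0.48) or young 3D (0.52) library, the Lum call without the aged 3D library (-0.44), and the Aspn call without the aged 3D (-0.41), aged TN (-0.36) or young 3D (-0.49) library. In Cd142+ fibroblasts none of 9 passed edgeR's test, with 6 at an unadjusted p under 0.05 and 2 called by DESeq2, where 2.11% of all genes passed. The lowest adjusted p by edgeR was 0.06617 for Ogn (-0.40 and -0.40), followed by 0.07055 for Lum (-0.54 and -0.28). The count of calls in this class was not stable. More passed without the aged 14D cold library, where 14D rests on 1 library and the share of all genes called is not given. ASPC sums again mix classes whose shares differed between libraries, and the part of that mix was not tested. Over all ASPCs, Bgn (-1.01 and -0.55, adjusted p = 0.04964 by edgeR), Fmod (-2.52 and -1.90, 0.04627) and Podn (-0.81 at 14D, 0.04972) passed, where 1.42% of all genes did. Those 3 calls were lost without the aged 3D (-0.91, -2.39 and -0.92 at 3D) or young 3D (-1.12, -2.63 and -1.08) library.

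Collagens also fell at 3D in part of the classes. The share of all genes called for temperature was 6.50% for Dpp4+ fibroblasts, 5.09% for Icam1+ preadipocytes and 2.11% for Cd142+ fibroblasts. In Dpp4+ fibroblasts 10 of 11 passed the test of temperature, led at 3D by Col3a1 (-1.26), Col1a1 (-0.995), Col5a3 (-0.90) and Col1a2 (-0.75). In Cd142+ fibroblasts 7 of 11 passed, led by Col3a1 (-1.04), Col1a1 (-0.81), Col1a2 (-0.73) and Col6a2 (-0.67). At 14D these 8 changes lay between -0.21 and 0.06. Col14a1, called in both classes, was at -0.23 at 3D and 0.20 at 14D in Dpp4+ fibroblasts. In Cd142+ fibroblasts it was at -0.23 and 0.36. In Icam1+ preadipocytes, where 6 SLRPs passed, none of 11 collagens passed edgeR's test, with 7 at an unadjusted p under 0.05 and 3 called by DESeq2. Of the proteases, 4 of 8 passed there: Adamts4 (0.54 at 3D and 0.53 at 14D), Htra1 (0.26 and 0.52), Adamts5 (-0.26 and -0.52) and Bmp1 (-0.13 and 0.25). Of the chondroitin and dermatan sulfate genes, 3 of 22 passed the test of temperature in Dpp4+ fibroblasts, among them Csgalnact1 (-0.32 and -0.58), and 2 of 24 in Icam1+ preadipocytes, Chst13 (0.17 and 1.81) and Chst15 (0.75 and 0.65).

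Decorin transcripts in SMC/pericytes and endothelial cells were more abundant in aged libraries. In SMC/pericytes Dcn stood at 219, 125 and 422 CPM in young TN, 3D and 14D libraries and at 1069, 1364 and 2230 CPM in aged ones. Its log2 change was 2.67 ± 0.20 (adjusted p = 5.983e-06 by edgeR), and Lum (1.79 ± 0.38, 0.02966) and Ogn (1.55 ± 0.29, 0.01212) also rose. These 3 of 6 SLRPs tested stood against 1.15% of all genes higher and 0.209% lower. The spread over cells differed between libraries: the top 10% of cells held 92.1% of the Dcn UMIs in the aged TN and 91.2% in the aged 3D library. In the aged 14D library, where Dcn was highest, that share was 37.0%, and 83.1% of cells held Dcn with a median of 5 UMIs. Cells of these classes also carried fibroblast markers: the ASPC list summed to 4221 to 5011 CPM in young and 4324 to 8285 CPM in aged SMC/pericytes. SMC/pericytes with an ASPC score under 0.2 were few, at 26, 22 and 24 cells in young TN, 3D and 14D libraries. In aged ones they numbered 149, 50 and 33. Among them Dcn was at 106 to 135 CPM in young and 118 to 333 CPM in aged libraries, without TMM scaling. The change was 0.66 (adjusted p = 0.4692 by edgeR). No SLRP passed with that limit, which was chosen after seeing the data. Red blood cell RNA moved with age there too, with 3 of 3 genes tested higher and sums of 1.95 to 27.4 CPM in young and 4.54 to 3605 CPM in aged libraries, and its part was not tested. The calls of Lum and Ogn were lost without the aged 14D (0.79 and 0.90) or young 14D (0.80 and 0.89) library, with DESeq2 (1.47 and 1.35) and with fixed limits on cells (0.52 and 0.82).

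In endothelial cells Dcn stood at 158, 146 and 149.6 CPM in young and 182, 504 and 701 CPM in aged libraries, a log2 change of 1.42 ± 0.27 (adjusted p = 0.02926 by edgeR). It was the only one of 7 SLRPs tested to pass, where 0.625% of all genes rose and 0.801% fell. With an ASPC score under 0.2 the change was 0.53 (adjusted p = 0.1025 by edgeR). In aged endothelial libraries the ASPC list summed to 743 to 2423 CPM and the adipocyte list to 1003 to 2107 CPM, against 996 to 1215 CPM and 462 to 1257 CPM in young ones, and their part was not tested. The call was also lost with DESeq2 (adjusted p = 0.6797) and without the aged 14D (1.00), aged 3D (1.23), young 14D (1.00) or young 3D (1.22) library. For temperature, none of 7 passed edgeR's test in endothelial cells, with 3 at an unadjusted p under 0.05 and 0 called by DESeq2, where 0.987% of all genes passed. In SMC/pericytes Dcn (1.02 at 14D, adjusted p = 0.03741 by edgeR), Lum (2.09, 0.01926) and Ogn (1.90, 0.006804) passed, where 0.776% of all genes did. Without the aged 14D library, the changes of Lum (0.73) and Ogn (1.00) at 14D no longer passed.

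The pattern of each SLRP over the 18 sums of 3 fibroblast classes and 6 libraries was set beside those of 5530 genes, as a description. The sums share libraries, and most of the spread is between classes. The closest genes by Pearson correlation of log2(CPM + 1) were Selenop for Dcn (0.97), G0s2 for Lum (0.99), Igfbp7 for Bgn (0.99), Cd302 for Podn (0.97), Plce1 for Omd (0.95), Map1a for Aspn (0.93), Fzd1 for Prelp (0.92) and Abca9 for Ogn (0.87). Next came S100a4 and Emb for Dcn, Tmem119 and Acvr2a for Lum, Cntfr and Steap4 for Bgn, Arhgef40 and Dhrs3 for Podn, Arhgef10 and Clip4 for Omd, Ptprd and Loxl2 for Aspn, Smoc2 and Tmsb10 for Prelp, and Cited2 and Asph for Ogn. Within the family, Podn was the nearest to both Lum (0.96) and Bgn (0.96), while the neighbours Dcn and Lum reached 0.50. Fmod was too low to be included.

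Of 9 further members of the family, Ecm2 was the most abundant in the fibroblast classes. Without TMM scaling its level was 62.3 ± 6.43 CPM in Dpp4+ fibroblasts, 116 ± 3.48 in Icam1+ preadipocytes, 206 ± 52.5 in Cd142+ fibroblasts and 131 ± 21.6 in SMC/pericytes (SD, n = 6). It fell with age in Dpp4+ fibroblasts (-0.28) and Cd142+ fibroblasts (-0.64), the only one called of 4 and 3 tested. In Icam1+ preadipocytes none of 4 passed edgeR's test, with 1 at an unadjusted p under 0.05 and 0 called by DESeq2. Tsku was at 14.3 ± 2.79 CPM in Dpp4+ fibroblasts and passed the test of temperature there (-0.51 at 3D and 0.13 at 14D). Chadl was at 7.61 to 9.34 CPM in the 3 classes, and Kera, Epyc, Optc, Chad, Nyx and Podnl1 were at most at 1.12 CPM there.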

How the data were processed

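The authors deposited, for each of 6 single-cell libraries, a table of UMI counts per gene and cell, made with Cell Ranger on mm10 and then analysed in R 4.1.1 with Seurat; these counts were used as deposited. Barcodes with over 200 genes and within 3 median absolute deviations of their library were kept. Cells were classed by marker scores. The log of counts per 10000 of each marker was divided by its median over cells holding it. That ratio was capped at 2 and averaged over the list. Limits on this score were 0.4 for other lineages, 0.5 for ASPCs and 0.3 with a margin of 0.1 for fibroblast classes. Cells with markers of 2 lineages (2263) were left unclassed, which served in place of a doublet caller. UMIs were summed per library and class. Age (3 against 3 libraries, temperature as a term), temperature (2 libraries each, age as a term), levels and differences of age effects (library as a block) were tested with edgeR 4.0.16 (quasi-likelihood test, TMM, filterByExpr, Benjamini-Hochberg adjustment, threshold 0.05) in R 4.3.3. DESeq2 1.42.0 was an alternative, beside other gates, filters, scalings and the omission of each library. On simulated data with 200 genes changed by a log2 of 1, 88% were recovered among 13363 genes for the age test in Dpp4+ fibroblasts. Named genes of a list are the 4 called with the largest changes, and like genes the 3 with the highest correlation among those of at least 20 CPM. The SLRP genes and all gene lists were chosen with earlier results of these data known. The depth per library (52068837 to 88508349 UMIs) limits the precision. Binomial intervals of shares of cells cover counting error only. Intervals of log2 differences come from edgeR's variances, which combine a gene's spread between libraries with that of all genes.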

Additional observations from a re-analysis of the deposited data

Results flagged for a closer look

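The age effects of 3 SLRPs differed between fibroblast classes by an interaction term, with library as a block, in edgeR's quasi-likelihood test. The log2 change with age in Icam1+ preadipocytes exceeded that in Dpp4+ fibroblasts by 0.69 for Lum, 1.24 for Aspn and 1.02 for Podn. In Cd142+ fibroblasts it exceeded that in Dpp4+ fibroblasts by 1.12 for Aspn. In Cd142+ fibroblasts against Icam1+ preadipocytes the difference was -0.50 for Lum. Both Lum differences depended on single libraries. Cells of the 3 classes come from the same 6 libraries, so the classes are not independent samples.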

How the results depend on the processing

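Of 77 called values for single genes, 42 stayed past the threshold in every alternative run, and 1 changed sign: the Aspn level in Cd142+ against Dpp4+ fibroblasts was 0.21 with the markers after the first 5 of each list. In the fibroblast classes the age counts of 5 (Dpp4+), 3 (Icam1+) and 4 (Cd142+) were 6, 3 and 5 with DESeq2, 7, 4 and 6 with no filter and 5, 3 and 6 with thinned cells; Dcn was among the genes gained with DESeq2 and no filter in each class, and Fmod in Cd142+ fibroblasts with no filter or thinned cells. In Icam1+ preadipocytes the Omd age call was lost with DESeq2 (0.52). The share of all genes called in each alternative is not given. Counts of called SLRPs that moved by over 1.5 times were as follows. With DESeq2, age gave 3 in ASPCs, 0 in endothelial cells and 1 in SMC/pericytes, and temperature gave 6, 2 (Cd142+ fibroblasts) and 1 (SMC/pericytes). With thinned cells, age gave 2 in ASPCs, 0 in endothelial cells and 1 in SMC/pericytes, temperature 3 in Cd142+ fibroblasts and 1 in SMC/pericytes, and the age difference of Cd142+ against Icam1+ cells 2. With the first 5 markers, age gave 2 in endothelial cells and temperature 3 in Cd142+ fibroblasts. With the markers after the first 5, age gave 2 in Cd142+ fibroblasts and 2 in endothelial cells, temperature 1 in ASPCs, 2 in Cd142+ fibroblasts and 1 in endothelial cells, and the Cd142+ against Icam1+ difference 0. With no filter on low counts, age gave 2 in ASPCs and 2 in endothelial cells, temperature 5, 4 (Cd142+) and 3 (endothelial), and the differences of Cd142+ against Dpp4+ and Icam1+ cells 4 and 5. With fixed cell limits, SMC/pericytes had 1 for age and 0 for temperature. With library totals, temperature gave 1 in Cd142+ fibroblasts. With a stricter margin, temperature gave 1 there and the Cd142+ differences 2 and 2. With an ASPC score under 0.2, chosen after seeing the data, age gave 0 in endothelial cells and 0 in SMC/pericytes, and temperature 0 there. Without the other term, age gave 0 in ASPCs, 1 in Dpp4+, 0 in Icam1+, 1 in Cd142+, 0 in endothelial cells and 1 in SMC/pericytes, and temperature 0 in ASPCs, Dpp4+, Icam1+ and SMC/pericytes. The cause was not tested. Leaving out each library in turn, age gave 1 to 3 in ASPCs, 3 to 8 in Dpp4+ (3 without aged TN, 8 without young 14D), 2 to 3 in Icam1+, 4 to 6 in Cd142+, 0 to 2 in endothelial cells and 1 to 3 in SMC/pericytes. Temperature gave 0 to 7, 1 to 6, 5 to 6, 0 to 6, 0 to 4 and 1 to 3 in the same order. Age differences gave 2 to 3 (Icam1+ against Dpp4+), 1 to 2 (Cd142+ against Dpp4+) and 0 to 3 (Cd142+ against Icam1+), and levels 9, 8 to 9 and 5, with 7 in SMC/pericytes and 9 in endothelial cells. DESeq2, no filter and fixed limits were not run for the levels of SMC/pericytes and endothelial cells. No paired analysis was possible by replicate number because each age and temperature has a single library; age was compared within temperatures, and classes within libraries. With 6 libraries and a shallow aged 14D library, changes in scarce transcripts such as Fmod are known least well.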
